A study of Mus musculus with 3 samples.

Results

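The proteasome genes comprised 49 of the 21881 gene symbols measured, chosen by name as all symbols that begin with Psma, Psmb, Psmc, Psmd, Psme, Psmf or Psmg and a digit. Their transcripts were sequenced from total RNA of 3 tumours of NDL(UCD), a mammary cancer line of mice that can be transplanted and serves as an ErbB2 model. The 3 tumours form a single group with no normal, untreated or other tumour group beside it. The line was grown in culture and injected into uncleared fat pads of the mammary gland in FVB/NJ females 6 to 8 weeks old, whose strain the labels also give as FVB/N. At 5 to 10 mm across, the tumours were removed, sectioned and snap-frozen. Each tumour came from a different mouse, so the spread is that between animals that carry the same line, and a result in this line need not hold in other tumours.

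The proteasome is the large protease of the cytosol and nucleus that degrades proteins tagged with ubiquitin. Its barrel-shaped core is made of alpha and beta rings, the inner beta rings carry the proteolytic sites, and a regulatory particle of a base and a lid recognises, unfolds and feeds in substrates. In immune cells, and in other cells exposed to interferon gamma, Psmb8, Psmb9 and Psmb10 take the places of Psmb5, Psmb6 and Psmb7 in newly made cores. The resulting immunoproteasome changes which peptides are cut for display on class I molecules of the major histocompatibility complex.

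The promoters of the subunits compared are shown first, because the immunoproteasome subunits and the constitutive subunits they replace are set side by side below. Each window runs from 250 bases before to 50 bases after a transcription start in the RefSeq annotation of build GRCm38.p6, which is a later build than the mm9 of the deposited values. It is written from the upstream end on the strand of the gene, and capitals mark matches to the 5 motifs described after the sequences.
Psmb8 promoter, chr17:34197945-34198244, plus strand: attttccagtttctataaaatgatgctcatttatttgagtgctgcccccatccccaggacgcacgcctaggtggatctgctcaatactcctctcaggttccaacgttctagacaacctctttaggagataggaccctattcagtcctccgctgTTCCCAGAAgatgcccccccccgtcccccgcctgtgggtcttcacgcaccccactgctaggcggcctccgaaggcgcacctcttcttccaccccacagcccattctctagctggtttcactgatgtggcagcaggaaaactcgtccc
Psmb9 promoter, chr17:34187281-34187580, minus strand: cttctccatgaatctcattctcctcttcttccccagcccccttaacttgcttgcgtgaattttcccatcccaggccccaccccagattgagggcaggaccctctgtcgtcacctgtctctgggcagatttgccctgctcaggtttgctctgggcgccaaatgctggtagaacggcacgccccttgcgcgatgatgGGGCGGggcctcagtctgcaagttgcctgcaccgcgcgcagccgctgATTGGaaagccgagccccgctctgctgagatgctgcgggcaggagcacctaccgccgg
Psmb10 promoter, chr8:105938343-105938642, minus strand: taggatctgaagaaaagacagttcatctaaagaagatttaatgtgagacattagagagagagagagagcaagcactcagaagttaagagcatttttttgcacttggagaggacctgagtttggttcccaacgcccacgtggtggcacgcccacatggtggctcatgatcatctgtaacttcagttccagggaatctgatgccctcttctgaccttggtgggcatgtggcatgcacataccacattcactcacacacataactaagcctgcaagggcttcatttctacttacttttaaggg
Psmb5 promoter, chr14:54617946-54618245, minus strand: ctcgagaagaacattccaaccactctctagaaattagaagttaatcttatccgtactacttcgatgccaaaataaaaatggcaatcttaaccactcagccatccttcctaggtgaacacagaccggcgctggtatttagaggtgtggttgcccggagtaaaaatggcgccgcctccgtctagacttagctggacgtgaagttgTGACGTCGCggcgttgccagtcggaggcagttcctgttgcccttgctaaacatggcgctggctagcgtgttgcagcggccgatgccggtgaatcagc
Psmb6 promoter, chr11:70525107-70525406, plus strand: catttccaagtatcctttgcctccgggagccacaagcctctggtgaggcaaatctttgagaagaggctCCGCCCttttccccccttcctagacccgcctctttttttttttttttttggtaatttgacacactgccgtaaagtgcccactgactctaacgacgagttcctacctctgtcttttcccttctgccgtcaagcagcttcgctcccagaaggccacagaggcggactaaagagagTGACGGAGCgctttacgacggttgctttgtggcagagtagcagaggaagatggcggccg
Psme1 promoter, chr14:55578244-55578543, plus strand: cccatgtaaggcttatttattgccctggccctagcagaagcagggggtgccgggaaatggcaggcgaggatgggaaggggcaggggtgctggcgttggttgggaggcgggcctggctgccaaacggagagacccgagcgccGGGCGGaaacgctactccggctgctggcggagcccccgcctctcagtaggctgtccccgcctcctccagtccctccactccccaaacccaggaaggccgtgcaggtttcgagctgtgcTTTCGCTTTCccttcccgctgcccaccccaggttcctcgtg

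Of the 49 genes, 40 had such a window in the RefSeq table, with 43 windows in all. Psmb7 had none, and Psmc3ip was not looked up. The motifs were searched on both strands, with N for any base. A GAS-like palindrome TTCNNNGAA, the form bound by STAT dimers, occurred in 8.30% of all 32851 promoter windows and in 3 of the 40 proteasome genes. Psmb8 was among these, with a match that begins 97 bases before its start and reads on both strands. The interferon-response core, GAAA and GAAA separated by any 2 bases, occurred in 3.44% of all windows and in 5 of the 40 genes, among them Psme1. The antioxidant-response core TGACNNNGC, the form bound by Nfe2l1 and Nfe2l2, occurred in 12.4% of all windows and in 6 of the 40 genes, which included Psmb5 and Psmb6. The CCAAT box CCAAT occurred in 37.4% of windows and in 14 genes, and the GC box GGGCGG in 35.7% of windows and in 23 genes. Psmb9 held a match to each of these last motifs, Psmb6 and Psme1 held a GC box, and the window of Psmb10 held none of the 5. The windows of Psmb9 and of Tap1, which encodes a subunit of the peptide transporter of the endoplasmic reticulum, lay on opposite strands with starts 226 bases apart and shared 275 bases. These matches describe letters in the windows and do not show that a factor bound there, nor does a missing match show the opposite.

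FPKM counts fragments per length of transcript and per size of library, so that levels of different genes can be set side by side per length. Means are given ± SD over n = 3 tumours. The deposited intervals imply about 11.7, 12.4 and 13.4 M (1e6) fragments, summed over the listed genes of tumours 1, 2 and 3. These sums are no measure of the full size of the libraries. The proteasome genes together held 0.561%, 0.603% and 0.769% of all FPKM, or 1786, 2268 and 2801 FPKM. All 49 had a valid estimate in each tumour. The luminal epithelial markers were high in each tumour, with summed levels of 949, 1291 and 1155 FPKM over 6 genes, as the labelled mammary tissue has. In bulk tumour RNA, a change in the number of cells of a type cannot be told apart from a change in RNA per cell, which applies to every difference between tumours below. Orders of the tumours are those of the deposited values unless the removal of GC and length trends, described further on, is named.

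Nearly all proteasome genes were above 1 FPKM, a conventional level with no biological meaning of its own. By limma with Benjamini-Hochberg adjustment over all 18028 symbols listed above 0, 47 of the 49 were above 1 FPKM, where 54.2% of all symbols were. The 2 below it were Psma8 and Psmb11, and 32.5% of all symbols were below it. Against a second level of 10 FPKM, 38 of the 49 were above, where 13.3% of all symbols were. This count ranged over 31 to 44 under the alternatives described at the end. Another 5 were below 10 FPKM (69.6% of all symbols), and 6 could not be separated from it. The plot of levels by subcomplex shows that the alpha ring held the gene with the highest mean and that levels of different subcomplexes overlapped.

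**Figure D1:**
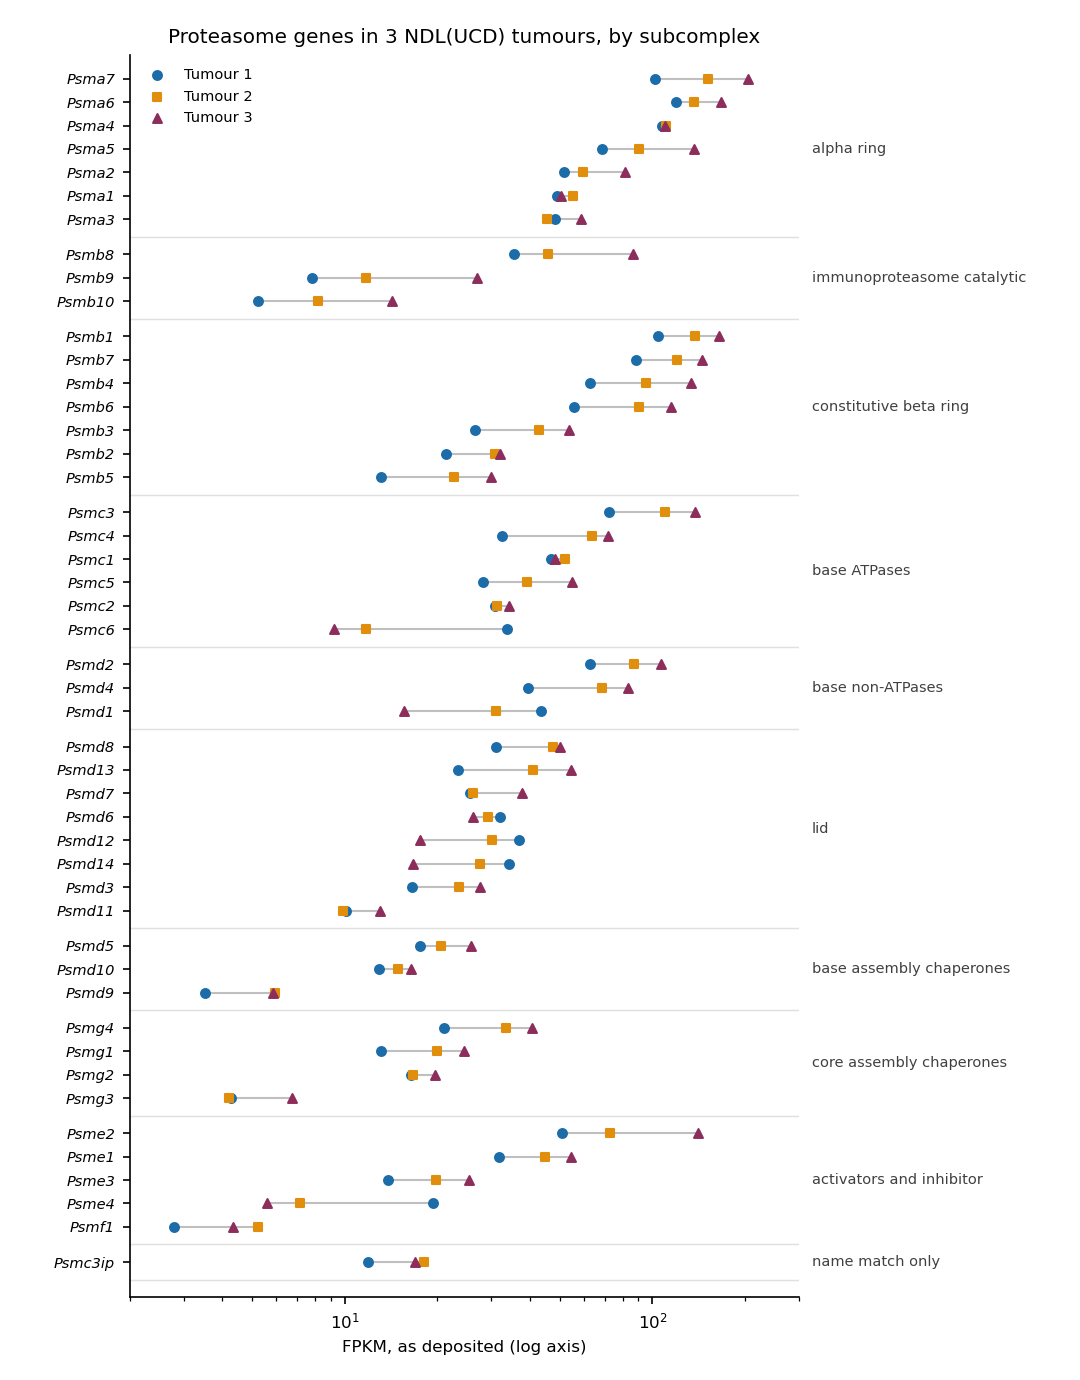
Levels of 47 proteasome genes in FPKM on a log axis, with 1 row per gene, grouped by subcomplex and ordered by mean, where the circle, square and triangle are tumours 1, 2 and 3 and the grey line spans them. Psma7 has the highest mean, at 153 FPKM, the immunoproteasome subunit Psmb8 lies above Psmb5, and Psma8 and Psmb11 are not drawn because they are listed at 0 in 2 of 3 tumours.

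The immunoproteasome subunit Psmb8, which carries the chymotrypsin-like site, had 35.6, 45.7 and 86.6 FPKM in tumours 1, 2 and 3. Its constitutive counterpart Psmb5 had 13.1, 22.6 and 29.8 FPKM. Psmb8 was therefore above Psmb5 in each tumour, and even its lowest value exceeded the highest of Psmb5. The means were 56.0 ± 27.0 FPKM for Psmb8 and 21.8 ± 8.36 FPKM for Psmb5. The difference of log2(FPKM + 0.1), Psmb8 minus Psmb5, was 1.43, 1.01 and 1.54, with a mean of 1.33 ± 0.28, a 2.51-fold excess.

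At the place of Psmb6, the constitutive subunit with the caspase-like site, the order was the reverse. Psmb9 had 7.83, 11.8 and 27.0 FPKM, against 55.8, 90.6 and 115 FPKM of the constitutive Psmb6. The highest Psmb9 value lay below the lowest Psmb6 value. Psmb9 averaged 15.5 ± 10.1 FPKM and Psmb6 87.1 ± 29.6 FPKM, with a log2 difference of -2.82, -2.93 and -2.09 in the 3 tumours. Its mean of -2.61 ± 0.46 made Psmb9 6.12-fold lower than Psmb6.

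The trypsin-like site had the widest gap. Psmb10 had 5.22, 8.21 and 14.3 FPKM, against 88.4, 121 and 145 FPKM of the constitutive Psmb7. The groups did not overlap, and the means were 9.23 ± 4.60 FPKM for Psmb10 and 118 ± 28.6 FPKM for Psmb7. The log2 difference, Psmb10 minus Psmb7, was -4.06, -3.86 and -3.34, with a mean of -3.75 ± 0.37, which is 13.5-fold lower. Averaged over the 3 sites on the log2 scale, the immunoproteasome subunits were 3.20-fold below the constitutive ones, at -1.68 ± 0.34. With the median over the 3 sites in place of the mean, the difference was -2.61.

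Each of these 4 differences had the same sign in 3 of 3 tumours and exceeded its own SD between tumours. In the exact two-sided sign-flip permutation test each gave p = 0.25 before and after Benjamini-Hochberg adjustment over 12 contrasts, which is the smallest p that 3 tumours allow. This test can therefore not reach a p under 0.05 with 3 tumours. Counting error was smaller than each difference, as the plot of the catalytic pairs shows. For Psmb9 minus Psmb6, the 95% counting interval of tumour 3, -2.22 to -1.95, lay above those of tumour 1, -3.07 to -2.57, and tumour 2, -3.14 to -2.73.

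**Figure D2:**
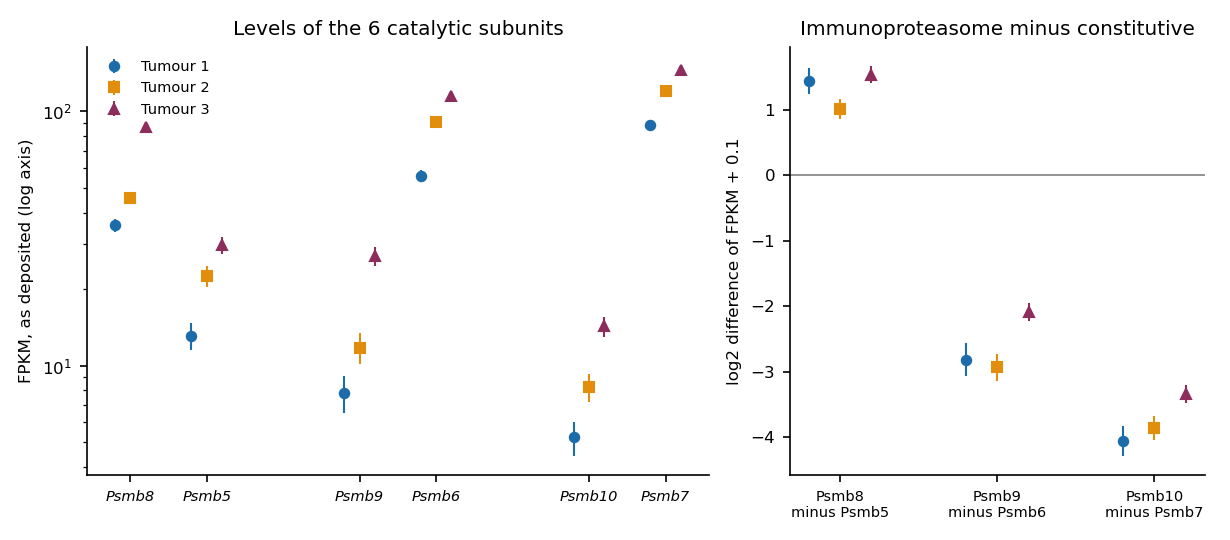
Left, FPKM (log axis) of the immunoproteasome subunits Psmb8, Psmb9 and Psmb10, each beside the constitutive subunit it replaces, per tumour. Right, the log2 difference of each pair per tumour. Bars are 95% counting intervals from the deposited bounds, and Psmb8 minus Psmb5 is above 0 while the other differences are below 0 in every tumour.

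Expressed as a share of the pair's FPKM, Psmb8 made up 73.1%, 66.9% and 74.4% of Psmb8 and Psmb5 together, a mean of 71.5% ± 4.00. Psmb9 made up 12.3%, 11.5% and 19.0% of its pair, a mean of 14.3% ± 4.14. Psmb10 made up 5.58%, 6.37% and 8.93%, a mean of 6.96% ± 1.75. The 3 immunoproteasome subunits summed to 48.7, 65.7 and 128 FPKM and the 3 constitutive ones to 157, 234 and 290 FPKM. With the deposited bounds of the subunits in a pair set against each other, the share of Psmb8 in tumour 1 lay between 69.4% and 76.7%, and that of Psmb9 between 9.95% and 14.8%. The immunoproteasome share of all 6 was 23.6%, 21.9% and 30.6%. Shares are of transcripts per length and say nothing of protein or of assembled particles. The transcript levels of the 3 immunoproteasome subunits spanned 6.07-fold in their means.

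The levels of Psmb8 and Psmb9 were set against 10 FPKM as well. By limma, Psmb8 was above 10 FPKM (log2 2.37, SE 0.29, adjusted p = 6.29e-05). Psmb9 (log2 0.44, SE 0.35, adjusted p = 0.269) and Psmb10 (log2 -0.23, SE 0.30, adjusted p = 0.492) were not separated from it by the same limma test. All 3 constitutive catalytic subunits were above it, where 13.3% of all symbols were.

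Psmb8 and Psmb9 lie close together in the class II region of the major histocompatibility complex on chromosome 17. On mm9, Psmb8 spans chr17:34335140-34338399 and Psmb9 chr17:34319044-34324275, with 10864 bases between them. Tap1 lies in that gap and Tap2 lies 3024 bases from Psmb8, so both transporter genes, named here for their place after their values were seen, are neighbours of these subunits. Tap1 had 7.05, 7.53 and 20.4 FPKM and Tap2 had 9.36, 11.6 and 22.1 FPKM. Both were highest in tumour 3, as Psmb8 and Psmb9 were. Psmb10 lies apart from them at chr8:108459628-108462292. The constitutive counterparts lie on other chromosomes again, Psmb5 at chr14:55232957-55236832, Psmb6 at chr11:70338859-70341360 and Psmb7 at chr2:38443566-38499426.

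A list of class I peptide processing and loading genes held Tap1, Tap2 and the transactivator Nlrc5 as well. All 11 with a valid estimate in each tumour were above 1 FPKM, where 54.2% of all symbols were. B2m, the light chain of class I molecules, had 657, 783 and 922 FPKM, and the heavy chain gene H2-D1 had 152, 219 and 442 FPKM. The calcium-binding chaperone Calr had 295, 520.4 and 595 FPKM. Lowest in the list were the class I transactivator Nlrc5, with 2.17, 1.53 and 3.75 FPKM, and the tapasin-related Tapbpl, with 5.37, 7.08 and 10.6 FPKM. Among 15 regulators of the interferon response, a list that also holds Nlrc5, 13 were above 1 FPKM, where 54.2% of all symbols were. The receptor chain Ifnar2 had 27.6, 40.5 and 44.2 FPKM, and Irf1, a factor known to act on the shared promoter of Psmb9 and Tap1, had 17.1, 20.2 and 32.1 FPKM. Ifng, which encodes interferon gamma, was near its detection limit, at 0.135 and 0.0703 FPKM in tumours 1 and 2 and listed at 0 in tumour 3. Socs1, a feedback inhibitor of the same pathway, had 0.602, 0.348 and 0.998 FPKM.

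The alpha ring, whose 7 subunits form the gate of the core, was the most abundant subcomplex. Its summed level was 546, 649 and 808 FPKM and its members lay within 3.01-fold of each other. Psma7 had the highest mean of all proteasome genes, with 102, 152 and 204 FPKM, and Psma3 the lowest of the ring, with 48.1, 45.3 and 58.5 FPKM. Psma4 varied least, with 108, 111 and 109.9 FPKM, a ratio of highest to lowest of 1.03. The other 4 members, Psma1, Psma2, Psma5 and Psma6, had means of 51.5 to 141 FPKM.

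The constitutive beta ring was less even, with a 6.21-fold span between Psmb5, its lowest member, and Psmb1, a structural subunit with 104, 138 and 165 FPKM. Of the other structural subunits, Psmb4 had 62.9, 95.1 and 133 FPKM, Psmb3 26.5, 42.8 and 53.4 FPKM and Psmb2 21.4, 30.9 and 31.9 FPKM. Psmb5 was thus the lowest of the 14 constitutive core genes. All 14 were above 10 FPKM by limma, where 13.3% of all symbols were. The mean of the constitutive catalytic subunits minus the alpha ring mean was -0.55 ± 0.26 on the log2 scale, with the same sign in 3 of 3 tumours, at the smallest possible exact permutation p of 0.25. With medians over the members of each set in place of means it was -0.08, so the difference depends on this choice.

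The tissue-restricted core subunits were nearly undetected. Psma8, an alpha subunit of the testis, was listed at 0, 0 and 0.0213 FPKM. Psmb11, the catalytic subunit of the thymic cortex, was listed at 0, 0 and 0.0019 FPKM. Their differences from Psma7 and Psmb5 are not given as folds because most values are listed at 0.

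The 6 base ATPases, which unfold substrates and thread them into the core, were 2.06-fold lower than the alpha ring, with a log2 difference of -1.04 ± 0.14. Psmc3 was highest, with 72.2, 110.1 and 138 FPKM. Psmc4 had 32.6, 63.5 and 71.5 FPKM, and Psmc5 28.2, 39.2 and 54.7 FPKM. As deposited these 3 genes were lowest in tumour 1 and highest in tumour 3, an order that none of them kept with the trends removed. Psmc1 and Psmc2 differed little between tumours, with ratios of highest to lowest of 1.11 for each. Psmc6 had the opposite order, with 33.8, 11.7 and 9.24 FPKM, and was the only base ATPase not separated from 10 FPKM by limma (log2 0.62, SE 0.37, adjusted p = 0.150).

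The base also holds the scaffold subunits Psmd1 and Psmd2 and the ubiquitin receptor Psmd4. Psmd2 had 62.8, 87.1 and 106 FPKM and Psmd4 39.5, 68.6 and 83.2 FPKM. Psmd1 had 43.3, 30.9 and 15.6 FPKM, so that it was highest where its fellow scaffold was lowest. The locus of Psmd1 contains the serotonin receptor gene Htr2b over 12934 bases, but Htr2b itself was between 1.49 and 2.02 FPKM.

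The 8 lid genes with Psm symbols were 3.28-fold lower than the alpha ring, with a log2 difference of -1.71 ± 0.19. The far higher lid gene Shfm1, given further on, is not in this mean. Psmd14, the deubiquitinase that removes ubiquitin chains before degradation, had 34.3, 27.5 and 16.7 FPKM, and its partner Psmd7 had 25.6, 26.2 and 37.7 FPKM. Psmd12, a structural subunit, had 36.8, 30.2 and 17.6 FPKM. Psmd12 and Psmd14 were thus highest in tumour 1 as deposited, as was Psmd6 with 31.9, 29.1 and 26.0 FPKM, though Psmd14 was highest in tumour 2 with the trends removed, at 26.8, 27.5 and 21.4 FPKM. Psmd13 had 23.3, 41.0 and 54.5 FPKM and Psmd8 had 31.1, 47.5 and 50.3 FPKM, both lowest in tumour 1 as deposited, while Psmd8 was lowest in tumour 3 with the trends removed, at 41.9, 43.3 and 40.9 FPKM. Psmd3 had 16.6, 23.6 and 27.6 FPKM. Psmd11, whose level has been linked to proteasome assembly in human embryonic stem cells, was the lowest lid gene, with 10.1, 9.88 and 13.0 FPKM, and was not separated from 10 FPKM by limma (adjusted p = 0.637).

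The assembly chaperones with Psm symbols were of moderate level. The 4 core chaperones, which build the alpha ring, were 5.72-fold lower than it, with a log2 difference of -2.52 ± 0.09 as deposited and -2.52 ± 0.43 with the trends of GC content and length described below removed. Psmg4 had 21.0, 33.3 and 40.7 FPKM, Psmg1 13.2, 19.9 and 24.4 FPKM and Psmg2 16.5, 16.7 and 19.6 FPKM. Psmg3 was lowest, with 4.27, 4.22 and 6.73 FPKM, and was below 10 FPKM by limma (adjusted p = 0.00591). Of the base chaperones, Psmd5 had 17.5, 20.5 and 25.7 FPKM, Psmd10, also known as gankyrin, had 13.0, 14.9 and 16.4 FPKM, and Psmd9 had 3.53, 5.96 and 5.84 FPKM. Psmd9 was below 10 FPKM by limma (adjusted p = 0.00675), and Psmd10 was not separated from it (adjusted p = 0.0509).

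Among the activators that cap the core in place of the regulatory particle, the interferon-inducible pair Psme1 and Psme2 was most abundant. Psme1 had 31.7, 44.9 and 54.6 FPKM and Psme2 had 50.8, 72.6 and 140.3 FPKM. Psme3, the nuclear relative of that pair, had 13.8, 19.8 and 25.4 FPKM. The mean of Psme1 and Psme2 lay 1.61 ± 0.15 log2 units above Psme3, a 3.06-fold difference present in 3 of 3 tumours, at the smallest possible exact permutation p of 0.25. The genes Psme1 and Psme2 are neighbours on mm9, at chr14:56197331-56200364 and chr14:56206277-56209938. Psme4, the large nuclear activator, had 19.4, 7.15 and 5.60 FPKM and was not separated from 10 FPKM by limma (adjusted p = 0.768). Psmf1, an inhibitor of the core in vitro, had 2.80, 5.23 and 4.33 FPKM and was below 10 FPKM by limma (adjusted p = 0.00174).

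Psmc3ip was chosen by its name only. It encodes a factor of homologous recombination that binds Psmc3 and is no proteasome subunit, and it had 11.9, 18.1 and 17.0 FPKM.

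Proteasome subunits and partner genes whose symbols do not begin with Psm were looked up as well, and 9 of 10 were found. Shfm1, the smallest lid subunit, had 215, 292 and 344 FPKM as deposited, above every gene of the Psm families. With the trends removed it had 111, 348 and 537 FPKM, in tumour 1 below the 134 FPKM of Psma7. Pomp, the chaperone that joins the core's parts, had 132, 187 and 237 FPKM. The ubiquitin receptor Adrm1 had 17.5, 23.8 and 28.3 FPKM, and Txnl1, a thioredoxin of the regulatory particle, had 45.5, 47.4 and 44.3 FPKM. Txnl1 was even only as deposited, with 24.4, 54.2 and 70.5 FPKM once the trends were removed. The deubiquitinases that bind the base, Uchl5 and Usp14, were both highest in tumour 1 as deposited. Uchl5 had 11.8, 4.18 and 2.04 FPKM and Usp14 had 13.9, 8.97 and 6.05 FPKM. With the trends removed Uchl5 was still highest in tumour 1, at 6.76, 4.70 and 3.12 FPKM, while Usp14 was lowest there, at 7.37, 10.3 and 9.74 FPKM. AI314180, an older symbol of the scaffold Ecm29, had 9.70, 5.74 and 4.43 FPKM, while Akirin2, which brings proteasomes into the nucleus, had 9.44, 12.4 and 11.0 FPKM. Ubxn11 was below 1 FPKM by limma, with 0.401, 0.859 and 0.421 FPKM.

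Genes upstream of the proteasome were also expressed. Of 10 regulators of proteasome genes, all were above 1 FPKM by limma (54.2% of all symbols) and 3 were above 10 FPKM (13.3% of all symbols). These were Stat3, with 38.4, 53.6 and 53.7 FPKM, Nfe2l1, the factor that raises subunit transcription when proteasomes are inhibited, with 22.4, 30.8 and 37.9 FPKM, and its relative Nfe2l2, with 30.2, 24.8 and 17.7 FPKM. The lowest were Ngly1, the deglycosylase that Nfe2l1 needs, with 3.55, 1.92 and 1.46 FPKM, and the CCAAT-binding subunit Nfya, with 3.58, 3.14 and 3.70 FPKM. All 15 ubiquitin and shuttle genes were above 1 FPKM as well, where 54.2% of all symbols were. The ubiquitin gene Ubb had a mean of 244 ± 51.9 FPKM, and the shuttle factor Ubqln2 was lowest with 2.47 ± 0.33 FPKM.

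The tumours were then compared with each other by Cochran's Q test on the deposited standard errors, with a ratio of highest to lowest of at least 2 required. Of the 47 proteasome genes averaging 1 FPKM or more, 17 differed between tumours, which is 36.2% where 32.4% of all 11058 genes tested did. The share was thus near that of all genes. The 12 that were highest in tumour 3 were Psmb8, Psmb9, Psmb10, Psma7, Psmb3, Psmb4, Psmb5, Psmb6, Psmc4, Psmd4, Psmd13 and Psme2, a share of 25.5% where 13.2% of all genes were so called. The 5 that were highest in tumour 1 were Psmc6, Psmd1, Psmd12, Psmd14 and Psme4, a share of 10.6% where 15.6% of all genes were. None was highest in tumour 2 among these calls, as 3.64% of all genes were. Just inside the threshold were Psma7 and Psmb3, with a ratio of 2.01 for each, and just outside it was Psma5 with 1.99. This test covers counting error in these 3 libraries and not the spread between mice. With median-of-ratios scaling, where the size factors were 0.862, 1.05 and 1.10, 8 genes were called, where 28.0% of all genes were. Of these, 3 were highest in tumour 3 (Psmb9, Psmb10 and Psme2), where 4.28% of all genes were, and 5 in tumour 1, where 21.9% of all genes were. Without tumour 1 a single proteasome gene was called, Psmb9, where 5.66% of all genes were. Without tumour 3, Psmc6 and Psme4 were called, where 14.0% of all genes were.

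The ratios between tumours followed the base composition of the transcripts, for proteasome genes as for genes at large. Over 47 proteasome genes, Spearman's rho between transcript GC content and log2 of FPKM in tumour 3 over tumour 1 was 0.80 and Pearson's r was 0.69. Over 10844 genes, rho was 0.70. These points share the same libraries and are given as a description. Psmc6, at 37.0% GC, had a log2 ratio of -1.87, and Psmb9, at 55.3% GC, one of 1.78, as the plot of ratios against GC content shows. The median log2 ratio was 0.69 for the proteasome genes and 0.39 for all genes.

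**Figure D3:**
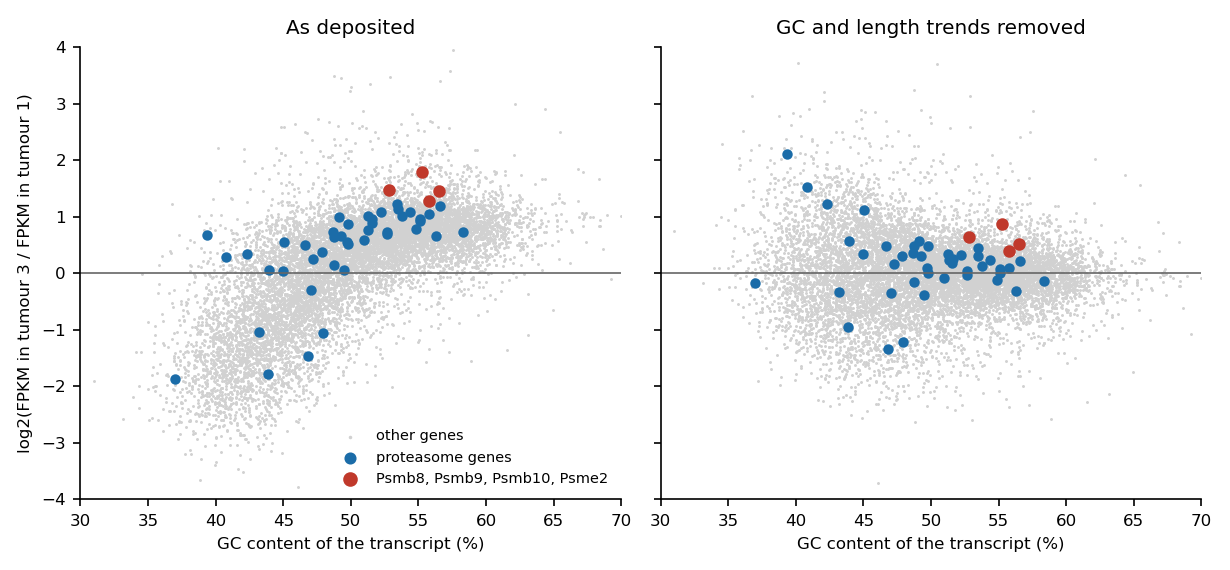
The log2 ratio of FPKM in tumour 3 over tumour 1 against transcript GC content in percent, as deposited on the left and after removal of each tumour's trends with GC content and length on the right. Grey points are other genes, blue points proteasome genes and red points Psmb8, Psmb9, Psmb10 and Psme2. The slope on the left (rho 0.80 for proteasome genes) is absent on the right (rho -0.09), where the red points remain above 0.

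When each tumour's GC and length trends were removed by a smooth fit over all genes, 6 of the 47 genes differed between tumours, or 12.8% where 15.3% of all genes did. None of Psmb8, Psmb9, Psmb10 and Psme2 then reached the ratio of 2. Psma2, Psma3, Psmd5 and Psmd10 were highest in tumour 3, at 8.51% where 6.31% of all genes were, and Psmd1 and Psmd12 were highest in tumour 1, at 4.26% where 7.26% of all genes were. None was highest in tumour 2, where 1.76% of all genes were. Of these 6, Psmd1 and Psmd12 were also called as deposited. With GC content and length taken as medians over transcripts, 6 genes were called again, where 16.3% of all genes were. Psmb1 and Psme4 then stood in place of Psmd5 and Psmd12. Psmd1 had 42.8, 29.3 and 16.9 FPKM after removal, and Psmd12 had 40.3, 28.2 and 17.3 FPKM, close to their deposited values. Psmc6 had 16.8, 14.1 and 14.9 FPKM, so its 3.66-fold range became 1.19-fold. Psma2, with a GC content of 39.4%, went the other way, with 29.2, 66.5 and 126 FPKM and a ratio of 4.31. The transcript used for its trends, of 2911 bases, may not be the one counted. In tumour 1 the deposited interval implies 1126 fragments for Psma2 at 51.5 FPKM. For Psma1, with 1201 bases, it implies 1512 fragments at 48.8 FPKM. Psma3 and Psmd5, taken at 2846 and 4397 bases, carry the same limit, so the calls of these 3 genes are uncertain. Any biological difference that happens to follow GC content is taken out as well, and the cause of the trend was not tested.

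The immunoproteasome genes stayed highest in tumour 3 after the removal, at lower ratios. Psmb9 had 11.3, 10.7 and 20.6 FPKM, a ratio of 1.92 where the deposited values gave 3.44. Psmb8 had 50.8, 41.6 and 66.6 FPKM and Psmb10 had 7.58, 7.47 and 10.8 FPKM, with ratios of 1.60 and 1.44. Their constitutive counterparts had ratios of 1.06 for Psmb6, 1.17 for Psmb5 and 1.28 for Psmb7. After the removal 30 of the 49 genes were highest in tumour 3, the immunoproteasome genes and the nearly undetected Psma8 included. Of the 18028 symbols listed above 0, some without a GC value, 6218 were. All 7 of the alpha ring were also highest in tumour 3, with ratios between 1.26 and 4.31. The ratio of 4.31 is that of Psma2, whose transcript length is uncertain. Psme2 had 70.7, 66.0 and 111 FPKM while its partner Psme1 had 45.5, 40.9 and 41.6 FPKM. The differences between immunoproteasome and constitutive subunits kept their signs in each tumour. Their means were 1.33 ± 0.28 for Psmb8 minus Psmb5, -2.61 ± 0.47 for Psmb9 minus Psmb6 and -3.75 ± 0.14 for Psmb10 minus Psmb7. The removal adjusts each gene only around its own mean over the tumours, so these means could hardly change. A bias by GC content or length that all tumours share was not removed.

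Summed markers of immune cells were highest in tumour 3, as the immunoproteasome genes were. The order of the other tumours differed once the trends were removed, since Psmb8, Psmb9 and Psmb10 were then lowest in tumour 2 and the leukocyte and macrophage sums lowest in tumour 1. The sum of 7 leukocyte markers was 52.1, 86.4 and 131 FPKM, and 61.2, 80.9 and 117 FPKM with the trends removed. As deposited, 5 of the 7 differed between tumours and were highest in tumour 3, where 13.2% of all genes were. With the trends removed, 3 of the 7 did, where 6.31% of all genes were. The pan-leukocyte marker Ptprc had 6.07, 3.51 and 4.44 FPKM as deposited, highest in tumour 1, and 4.11, 3.66 and 6.34 FPKM with the trends removed. The sum of 9 macrophage markers was 293, 538 and 996 FPKM, and 369, 496 and 878 FPKM with the trends removed. Lyz2 was its highest member, with 146, 230.3 and 602 FPKM, and 167, 215 and 565 FPKM with the trends removed. It thus made up most of the sum in tumour 3. With the trends removed, 7 of the 9 were highest in tumour 3, where 6218 of 18028 symbols were. As deposited, 8 of the 9 differed between tumours, all highest in tumour 3, where 13.2% of all genes were. With the trends removed, 3 of the 9 did, where 6.31% of all genes were. The summed level of 10 T and NK cell markers was low, at 3.73, 6.49 and 10.5 FPKM (4.22, 5.96 and 9.86 FPKM with the trends removed), led by Cd3g with 0.953, 2.02 and 4.87 FPKM. Only 1 of those 10 was above 1 FPKM by limma, where 54.2% of all symbols were. The 5 B cell markers summed to 0.133, 0.429 and 0.714 FPKM, and the defining Pax5 was listed at 0 in all 3 tumours. The luminal sum was highest in tumour 2 and none of its 6 genes differed between tumours by this test, where 32.4% of all genes did as deposited. The part of immune cells in the levels of the immunoproteasome genes was not tested, and expression by tumour cells and by immune cells cannot be told apart in these libraries.

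**Figure D4:**
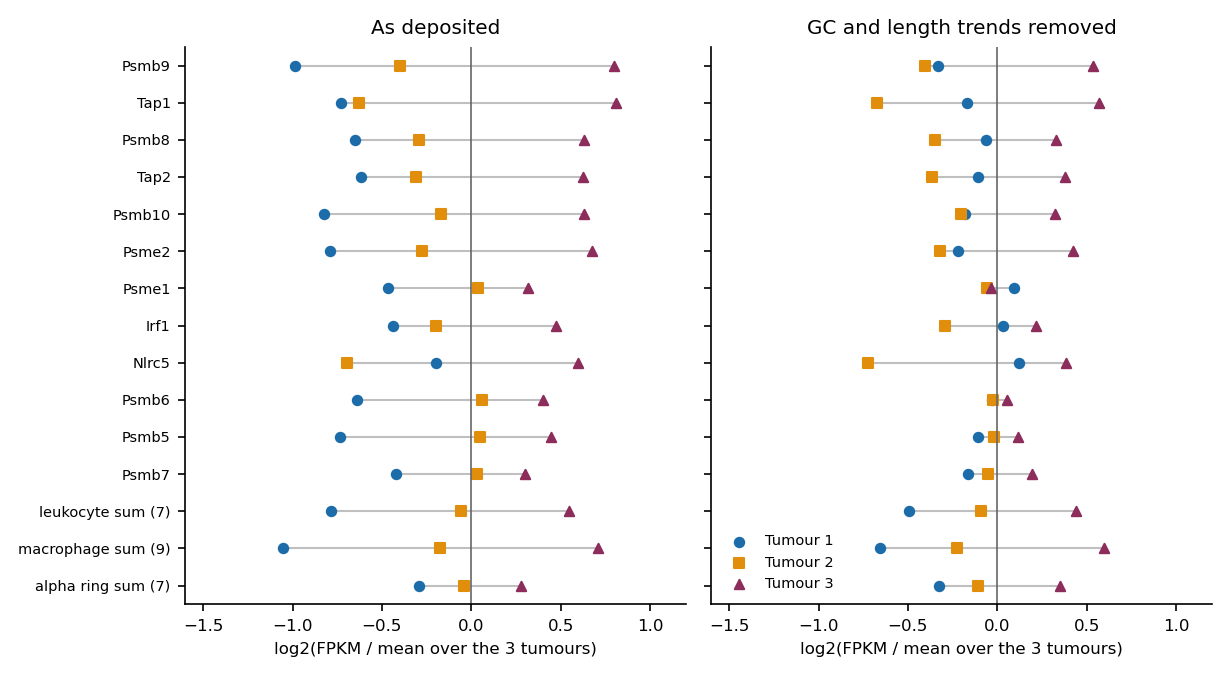
The log2 of each tumour's FPKM over the mean of the 3 tumours, as deposited on the left and with GC and length trends removed on the right, for immunoproteasome genes, interferon-pathway and transporter genes, constitutive subunits and marker sums. Circles, squares and triangles are tumours 1, 2 and 3. Tumour 3 is highest for Psmb8, Psmb9, Psmb10, Psme2, Tap1, Tap2 and the leukocyte and macrophage sums in both panels, while Psmb6 has a ratio of highest to lowest of 1.06 on the right.

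Of the 11 class I genes, 7 were called and highest in tumour 3 as deposited, where 13.2% of all genes were, and 1 was called and highest in tumour 1, where 15.6% of all genes were. With the trends removed, 3 of the 11 were called, Tap1, B2m and Nlrc5, all highest in tumour 3, where 6.31% of all genes were. Of the 13 interferon regulators tested, 3 were called as deposited, where 32.4% of all genes were. Of these, 2 were highest in tumour 3, Nlrc5 among them, and 1 in tumour 1. With the trends removed 3 were called, where 15.3% of all genes were, with 1 highest in tumour 3, Nlrc5, and 2 in tumour 1. Canx, a chaperone of class I heavy chains, had a failed estimate in tumour 1 in the deposited table and is not given.

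Some values carry a limit of the counting. Pseudogenes or near copies of Psma5, Psmb5, Psmb6, Psmb7 and Psme2 are annotated in RefSeq, so reads may have been split between them and these values are uncertain. The microRNA gene Mir686 lies inside the Psmb5 locus over 109 bases. It was listed at 4.22e-05, 73.5 and 167 FPKM, above Psmb5 itself in tumours 2 and 3. This limit bears on the low rank of Psmb5, on Psmb8 minus Psmb5 and on the share of Psmb8, and its effect was not tested. The ends of Psma4, Psme1 and Psmc3ip overlap a neighbouring gene by 96, 4 and 51 bases. The libraries were directional, but no source used here states whether the counting used strand, so reads in these overlaps cannot be assigned with certainty.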

How the data were processed

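Total RNA of 3 tumours, numbered in accession order, was depleted of ribosomal RNA and 50 ng was made into directional, random-primed libraries, per the labels' protocols. What the authors deposited is an FPKM value, its interval bounds and a status for each gene, per the file headers. TopHat, Cufflinks and mm9 are named in the submitters' processing notes, while versions, annotation and the use of strand are not given. The distance from the FPKM to the upper bound was taken as 2 standard errors, and intervals cover counting error only. Such libraries and their amplification can favour fragments by base composition.

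For levels, limma 3.58.1 (R 4.3.3, trend and robust moderation) was fitted to log2(FPKM + 0.1) against 1 and 10 FPKM, over all symbols listed above 0. Other scripts used Python 3.11.15, pandas 2.3.3, scipy 1.17.1 and statsmodels 0.14.6. Tumours were compared by Cochran's Q with 2 degrees of freedom, Benjamini-Hochberg adjustment at 0.05 and a ratio of at least 2. The 12 contrasts used exact sign-flip tests. GC content and length came from the longest coding transcript in GENCODE vM21, matched by name for 98.2% of symbols, and trends were removed by lowess (span 0.3). Level test, Q test and trend removal were each run on simulated data that were simpler than the deposited values. The simulated level test had no trend moderation and an equal spread for all genes. The simulated Q test had counting error only and no GC trend.

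Every proteasome gene and partner may be named, and of each other list the 3 highest and 2 lowest by mean. Some genes that this rule would name are not reported here. Members and lists were chosen with earlier results of these data known. Alternatives were other pseudocounts, filters, scalings and moderation, the trend removal, and leaving out each tumour. A version with GC content as a median over transcripts was chosen after seeing the data.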

Additional observations from a re-analysis of the deposited data

How the results depend on the processing

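The signs of all 12 contrasts and the 3 shares kept their direction under every alternative run for them. For the mean contrasts the trend removal is no real alternative, since it acts around each gene's mean over the tumours and could hardly move them. Psmb8 minus Psmb5 ranged over 1.22 to 1.49 log2 units, Psmb9 minus Psmb6 over -2.88 to -2.45 and Psmb10 minus Psmb7 over -3.96 to -3.60. The mean over the 3 sites ranged over -2.61 to -1.56 and the constitutive catalytic subunits minus the alpha ring over -0.64 to -0.08, with medians over members at -2.61 and -0.08. The main test called 17 genes as differing between tumours, where 32.4% of all genes were. Median-of-ratios scaling gave 8, where 28.0% of all genes were called, and removal of GC and length trends 6, where 15.3% were. With GC content as a median over transcripts 6 were called, where 16.3% of all genes were. Both versions of the removal shared 4 genes, Psma2, Psma3, Psmd1 and Psmd10. At a ratio of at least 1.5, 34 were called, or 72.3%, near the 68.5% of all genes. Leaving out tumour 1, 2 or 3 gave 1, 17 and 2, where 5.66%, 29.3% and 14.0% of all genes were called. The count below 1 FPKM was 2 in the main test, where 32.5% of all symbols were. It was 0 with a filter at a mean of 0.5 FPKM and 0 to 2 without a tumour. With the trends removed it was 1, where Psmb11 had no value above 0. The count above 10 FPKM ranged over 31 to 44, where 13.3% of all symbols were above it in the main test. The count below 10 FPKM was 5 in the main test, where 69.6% of all symbols were. It was 3 with that filter, which removes the undetected genes, and 3 to 6 without a tumour. After rescaling to a total of 1000000 FPKM it was 2. That rescaling raises levels by a mean of 1.51 log2 units and put Psmb10, Psmd9, Psmg3, Psme4 and Psmf1 at 1.26, 0.49, 0.49, 1.38 and 0.18 log2 units above 10 FPKM, turning their signs. No paired analysis was possible because the 3 tumours form a single group. Depth did not limit the catalytic pairs, whose counting intervals were narrower than the differences, but 3 tumours do limit the tests.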
